A study of Mus musculus with 14 samples.

Results

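The 6 actin isoforms of the mouse were examined in C2C12 cells, a myoblast line that fuses into myotubes when the serum is reduced. They were the 6 rows of the deposited expression table, of 24016, that carry the symbols Acta1, Actc1, Acta2, Actg2, Actb and Actg1. Poly(A) RNA had been sequenced from cells transfected with a control siRNA (siCtrl) or with a pool of siRNAs against Klf5 (siKlf5), a zinc-finger transcription factor of the Krüppel-like family. Cells were collected on days 0, 1, 2 and 3 of culture in differentiation medium, which holds horse serum in place of fetal bovine serum, and 1 library was made for each siRNA and day, 8 in all. Both groups were transfected cells of the same line, and the siRNAs were transient, so Klf5 was lowered and not removed. The values are FPKM, reads per kilobase of exon scaled to a fixed library total by the authors, so that levels of different genes are given per length.

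Actin monomers assemble into filaments, which with myosin carry contraction in the sarcomere and shape the cortex and stress fibres of non-muscle cells. Acta1 (skeletal) and Actc1 (cardiac) are the sarcomeric isoforms, both of which striated muscle makes during development. Acta2 and Actg2 are the isoforms of vascular and enteric smooth muscle, and Acta2 is also known from myoblasts and myofibroblasts. Actb and Actg1 are the cytoplasmic isoforms that nearly every cell makes. Replacement of cytoplasmic by muscle actins is a classical feature of myoblast differentiation, and many actin promoters carry CArG boxes, the binding site of serum response factor (Srf).

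The 6 proteins differ most near their amino ends, where each carries its own acidic residues. The first 45 coding bases of each isoform are shown because they tell the isoforms apart. They were read from the mm9 genome along the GENCODE coding exons, lined up without gaps from the stop codon, and the capitals mark bases that differ from the base of Acta1 opposite. The coding sequences of Acta1, Actc1 and Acta2 are 1134 bases long including the stop codon, that of Actg2 is 1131 and those of Actb and Actg1 are 1128, so the start codons of the last 3 stand opposite later codons of Acta1.
Acta1: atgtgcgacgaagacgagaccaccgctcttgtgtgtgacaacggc
Actc1: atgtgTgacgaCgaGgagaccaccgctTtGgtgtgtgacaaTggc
Acta2: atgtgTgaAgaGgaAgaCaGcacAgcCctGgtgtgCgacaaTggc
Actg2: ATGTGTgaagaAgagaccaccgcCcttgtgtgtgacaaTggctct
Actb: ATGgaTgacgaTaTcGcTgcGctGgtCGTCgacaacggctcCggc
Actg1: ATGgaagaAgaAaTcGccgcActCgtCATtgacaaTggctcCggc
Over the last 1098 coding bases the identity between 2 isoforms ranged from 82.4% (Actg1 with Actc1 or Acta2) to 89.1% (Actb with Actg1). Acta1 and Actc1 were 86.2% identical.

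Because the isoforms and their processed copies resemble each other, reads can be assigned wrongly, and this differed between the 6 genes. Of all 50-base stretches of the spliced Actg1 transcript, 96.7% occur without mismatch at another place in mm9, and 89.3% occur in chr4:103235930-103237834 alone. For Actb 15.4% of the stretches occur elsewhere, for Acta1 2.22%, for Acta2 0.404%, and for Actc1 and Actg2 0. At most 2.57% of any isoform's stretches (those of Actb) are shared with another of the 6. The length of the reads and the treatment of reads with several matches are not given in the sources used here, so the level of Actg1 is uncertain.

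In the deposited table each isoform is represented by 1 RefSeq transcript, and all 6 lie on the minus strand of mm9. Acta1 (NM_009606, 1472 bases of exon) is at chr8:126415658-126418675 and Actc1 (NM_009608, 1381 bases) at chr2:113873025-113878547. Acta2 (NM_007392, 2561 bases) is at chr19:34314826-34329863 and Actg2 (NM_009610, 1304 bases) at chr6:83462903-83486245. Actb (NM_007393, 1881 bases) is at chr5:143664795-143668403 and Actg1 (NM_009609, 1886 bases) at chr11:120207004-120209798. GENCODE lists a protein-coding gene of the same name at each place.

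The upstream sequences of the sarcomeric pair, Acta1 and Actc1, and of the cytoplasmic Actg1 are shown because these genes follow different courses over differentiation while each has a CArG box. Each is the part of the 250 bases before the transcript start that GENCODE does not annotate as exon, on mm9, minus strand, and the capitals mark the CArG box.
Acta1, chr8:126418676-126418925: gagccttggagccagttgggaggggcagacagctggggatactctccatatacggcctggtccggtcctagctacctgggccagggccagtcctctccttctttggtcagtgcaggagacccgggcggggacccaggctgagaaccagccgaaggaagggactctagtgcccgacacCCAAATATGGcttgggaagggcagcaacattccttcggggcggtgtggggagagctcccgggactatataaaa
Actc1, chr2:113878624-113878797: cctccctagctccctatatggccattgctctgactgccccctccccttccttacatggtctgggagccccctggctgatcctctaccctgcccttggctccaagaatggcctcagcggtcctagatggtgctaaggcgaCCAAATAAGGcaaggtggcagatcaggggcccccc
Actg1, chr11:120209857-120210048: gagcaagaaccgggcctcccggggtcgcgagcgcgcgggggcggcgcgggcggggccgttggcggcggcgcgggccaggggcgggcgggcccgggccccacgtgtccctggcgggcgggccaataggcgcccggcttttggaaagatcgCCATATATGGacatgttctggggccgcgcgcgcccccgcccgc
Over 23950 promoters of the table read in the same way, 1.31% hold a CArG box on either strand. Motifs are given for 5 of the 6 actin promoters. Among the promoters of Acta1, Actc1, Acta2, Actg2 and Actg1 it was found in 4 of 5, starting 73 bases before the transcript start in Acta1, 111 in Actc1 and 101 in Actg1. Actg2 had 2 boxes, 82 and 45 bases before its start, which 0.0209% of all promoters have. The Acta2 window had no exact match to the CArG box, which says only that these letters are not in it. The E-box CANNTG, the site of MyoD and myogenin, was in each of these 5 windows, beside 62.9% of all promoters. The GT-box CACCC, the site of Krüppel-like factors, was in the 4 muscle isoforms and not in Actg1, beside 52.6% of all promoters. In Acta1 the GT-box starts 76 bases before the start, and its last 2 bases are the first 2 of the CArG box. The sequence CCGCCC was in Acta1 and Actg1 (41.6% of all promoters), the MCAT sequence CATTCC was in Acta1 and Acta2 (11.6%), and none of the 5 windows held a MEF2 site (2.60%). All motifs were searched on both strands of the whole 250 bases before the RefSeq start. In Actc1 GENCODE annotates the bases nearest that start as exon, and the upstream sequence shown has 174 bases. The E-box of Actc1 (56 bases before that start) and its GT-boxes (77 and 5 bases) lie in that exon or run into it.

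Recovered depth was between 7850497 reads (siCtrl, day 1) and 20301505 (siCtrl, day 2). The 8 libraries held the markers of skeletal muscle. Of 15 such genes none was at 0 in any library, their summed FPKM went from 3833 to 24362 between days 0 and 3 in siCtrl and from 3038 to 23337 in siKlf5 cells, and 12 of the 15 rose. Rises of markers are those called by limma from day 0 to day 3 at an adjusted p under 0.05. Of all 14312 transcripts tested, 12.8% were called higher in this way. Of 11 smooth muscle markers 8 were expressed, and 7 of these rose. Without 1 library of day 0 or day 3, only 2 (siCtrl, day 0) or 3 were called. With no filter on low values 4 were. Tagln went from 79.2 to 288 FPKM between days 0 and 3 in siCtrl and from 53.1 to 355 in siKlf5 cells. Synpo2 went from 51.5 to 215 and from 41.5 to 198, and Smtn from 335 to 456 and from 275 to 385. The others that rose were Lmod1, Mylk, Susd5 and Des. Other markers stayed near 0, with Myh11 between 0 and 1.02, Cnn1 between 0 and 1.98 and Myocd between 0 and 2.49 FPKM. The summed smooth muscle list was between 1690 and 3228, of which Des, also a skeletal muscle gene, made up 1264 to 2451. Of 9 cardiac markers 3 to 5 were at 0 in each library, Nppa in all 8, and their sum was between 87.7 and 161. Of the 4 that were expressed, Myh6, the alpha myosin heavy chain of the heart, rose from 1.53 to 52.4 FPKM between days 0 and 3 in siCtrl and from 0.936 to 12.3 in siKlf5 cells (4.30 ± 0.73 on the log2 scale, limma adjusted p = 0.0037). It was called in 15 of 17 alternative settings but not without the siCtrl library of day 3 or with no filter on low values. Gata4, a cardiac transcription factor, fell from 86.8 to 53.5 FPKM in siCtrl and from 108 to 54.3 in siKlf5 cells (-0.85 ± 0.19, limma adjusted p = 0.013), and was called in 13 of 17, but not without either day 3 library, without the siKlf5 library of day 0 or with no filter on low values. Klf5 had 15.7%, 41.9%, 31.3% and 22.7% of its siCtrl value in the siKlf5 libraries on days 0, 1, 2 and 3.

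The first comparison asks how the actins change as myoblasts differentiate. Acta1, Actc1 and Acta2 rose from day 0 to day 3, nearly all of it by day 1, whereas Actg2, Actb and Actg1 did not pass the test. The test was limma on log2(FPKM + 0.1) with siRNA and day as terms, so the 2 libraries of a day, 1 per siRNA, stand in for replicates. RNA of whole cultures cannot tell a change per cell from a change in how many cells had differentiated. Nothing says that any library was a separate culture of the same condition, and the p-values measure only the spread between these libraries. Of the 14312 transcripts with a mean FPKM of at least 1, 12.8% were higher on day 3 than on day 0 at an adjusted p under 0.05 and 17.6% were lower (1831 and 2516). After median-ratio scaling these numbers were 2173 and 1829, and after upper-quartile scaling 2100 and 1934. Against this background 3 of the 6 actins were called higher and 0 lower. From day 0 to day 1, 6.82% of all transcripts were called higher and 9.93% lower (976 and 1421, but 1190 and 972 after median-ratio scaling and 1265 and 897 after upper-quartile scaling), and the same 3 actins were called higher.

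**Figure D1:**
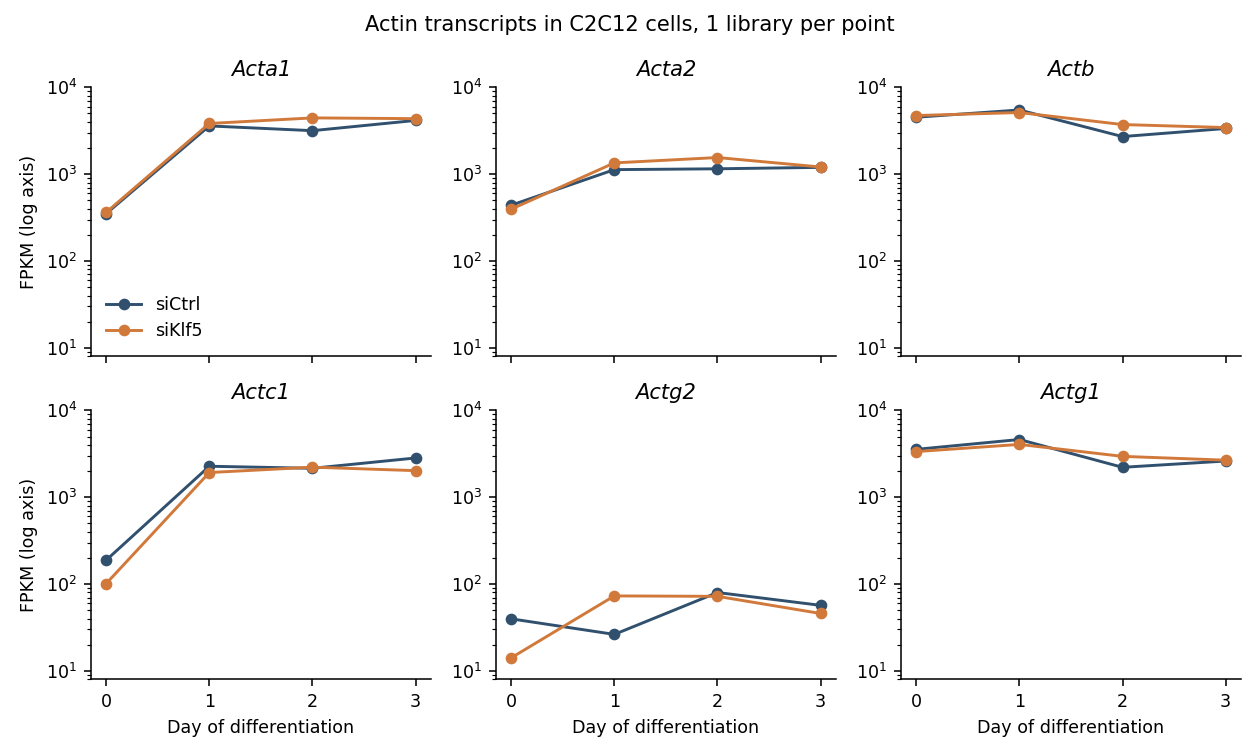
FPKM (log axis) of each actin isoform by day of differentiation, with 1 library per point, siCtrl in blue and siKlf5 in orange. Acta1 and Actc1 climb more than 10-fold between days 0 and 1 under both siRNAs, Acta2 climbs less, Actg2 stays under 80 FPKM and crosses between the siRNAs, and Actb and Actg1 stay at 2209.7 or more throughout.

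Acta1, the main actin of adult skeletal muscle, had FPKM values of 351, 3588, 3163 and 4150.1 on days 0, 1, 2 and 3 in siCtrl cells. In siKlf5 cells it had 363, 3828, 4439 and 4351. The day 0 libraries were thus the lowest of the 8 by far, and those of the 3 later days did not overlap with them. How many of all transcripts separate in this way was not counted. Among the 24016 rows of the table, Acta1 went from rank 1776 on day 0 to rank 7 on day 3 in siCtrl cells and from rank 1677 to rank 4 in siKlf5 cells. The log2 difference between days 3 and 0 was 3.57 ± 0.14 (SE; limma, adjusted p = 3.8e-06), an 11.9-fold rise, and that between days 1 and 0 was 3.38 ± 0.14 (adjusted p = 1.4e-05).

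Actc1, the actin of the adult heart and of developing skeletal muscle, had 188, 2273, 2153 and 2830.1 in siCtrl cells. In siKlf5 cells it had 101, 1924, 2219 and 2023. It started lower than Acta1 and rose further on the log2 scale, although the difference between the rises of the 2 genes was not tested. The log2 difference between days 3 and 0 was 4.11 ± 0.20 (SE; limma, adjusted p = 8.3e-06), a 17.3-fold rise, and that between days 1 and 0 was 3.92 ± 0.20 (adjusted p = 2.8e-05). In no library did Actc1 reach the value of Acta1.

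Acta2, the actin of vascular smooth muscle, had 439 FPKM in siCtrl and 395 in siKlf5 cells on day 0. On days 1, 2 and 3 it had 1126, 1151 and 1196 in siCtrl cells and 1346, 1552 and 1207 in siKlf5 cells. Every later library was thus above both day 0 libraries, as for Acta1, and the share of all transcripts that do so was not counted. The values changed little after day 1. The log2 difference between days 3 and 0 was 1.53 ± 0.15 (SE; limma, adjusted p = 2.5e-04), a 2.89-fold rise. The ratio of Acta2 to Acta1 within a library went from 1.25 to 0.288 in siCtrl and from 1.09 to 0.278 in siKlf5 cells.

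Actg2, the actin of enteric smooth muscle, was the least abundant of the 6 in every library and rested on 33 to 350 reads. It had 39.8, 26.3, 79.9 and 56.9 FPKM in siCtrl cells and 14.2, 73.0, 72.2 and 45.8 in siKlf5 cells. The order of the days differed between the siRNAs, since day 1 was the lowest of the siCtrl and the highest of the siKlf5 libraries. The log2 difference between days 3 and 0 was 1.10 ± 0.57 (SE; limma, adjusted p = 0.19, 95% interval -0.21 to 2.42), an interval that holds a small fall as well as a rise larger than that of Acta2. It was 0.19 without the siKlf5 library of day 0 and 2.01 without the siCtrl library of day 0.

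Actb, the cytoplasmic beta actin, had 4519, 5476, 2705 and 3352 FPKM in siCtrl cells. In siKlf5 cells it had 4724, 5119, 3720.4 and 3436. The 4 libraries of days 2 and 3 were all below the 4 of days 0 and 1. The same held for Vim, Hsp90b1 and Basp1, and the share of all transcripts that separate in this way was not counted. The log2 difference between days 3 and 0 was -0.45 ± 0.17 (SE; limma, adjusted p = 0.078) and that between days 2 and 1 was -0.74 ± 0.17 (adjusted p = 0.078), neither past the threshold in this fit.

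Actg1, the cytoplasmic gamma actin, had 3557, 4619, 2209.7 and 2611 FPKM in siCtrl cells. In siKlf5 cells it had 3353, 4055, 2954 and 2669.8. It followed Actb closely, with the 4 libraries of days 2 and 3 again below the other 4, as in Vim, Hsp90b1 and Basp1. The log2 difference between days 3 and 0 was -0.39 ± 0.17 (SE; limma, adjusted p = 0.12) and that between days 2 and 1 was -0.76 ± 0.17 (adjusted p = 0.074). From day 1 to day 2, 1.01% of all transcripts were called higher and 0.377% lower (145 and 54, or 97 and 67 after upper-quartile scaling), and 0 of the actins were, although Actb and Actg1 were under 0.05 before adjustment. With limma voom on the recovered reads 273 transcripts were called higher and 301 lower, and both were among the latter, Actb at -0.73 (adjusted p = 0.0060) and Actg1 at -0.75 (adjusted p = 0.0067). After quantile scaling Acta1 was called higher on day 2 than on day 1, at 0.52 (limma, adjusted p = 0.023). With the day 2 library of either siRNA left out, Actb and Actg1 were both called lower on day 3 than on day 0, with adjusted p-values from 0.030 to 0.046.

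The number of reads on the abundant actins moved little with depth. Actb held 11575 to 17094 reads, a 1.48-fold range, and Actg1 9019 to 14000, while the depth of the libraries differed 2.59-fold. The authors kept at most 3 reads per position, and Actb held 6.15 to 9.09 reads per base of exon. FPKM divides these reads by the depth, and the deepest library, siCtrl on day 2, had the lowest FPKM of both cytoplasmic actins. The part of depth in the day 1 and day 2 values was not tested. On days 0 and 3 the depth was nearly equal, with a ratio of day 3 to day 0 of 1.02 for siCtrl and 0.976 for siKlf5. Between these libraries Actb was at 0.742 of its day 0 value in siCtrl and at 0.727 in siKlf5 cells, and the 337 transcripts with a mean FPKM of at least 1000 had a median log2 difference of -0.26 in siCtrl and -0.20 in siKlf5 cells.

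**Figure D2:**
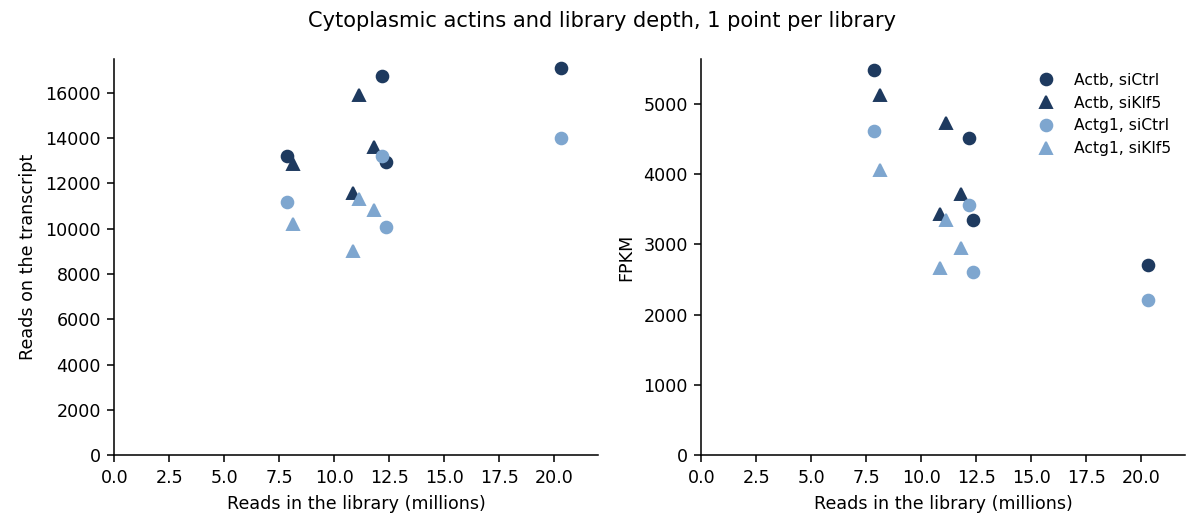
Reads on Actb and Actg1 (left) and their FPKM (right) against the reads in each library, with 1 point per library, circles for siCtrl and triangles for siKlf5. The reads of both genes span less than 1.6-fold while the depth spans 2.59-fold, and the deepest library has the lowest FPKM of both.

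Summed over the 6 isoforms, the actin FPKM was 9093 in siCtrl and 8949 in siKlf5 cells on day 0. The day 1 sums were 17109 and 16346, those of day 2 were 11462 and 14957, and those of day 3 were 14195 and 13732. Under both siRNAs the sum was thus higher on day 3 than on day 0, and all of that net difference came from muscle isoforms, since the cytoplasmic pair went from 8076 to 5963 in siCtrl and from 8076 to 6105 in siKlf5 cells. The 4 muscle isoforms made up 11.2%, 41.0%, 57.1% and 58.0% of the sum on days 0, 1, 2 and 3 in siCtrl cells. They made up 9.75%, 43.9%, 55.4% and 55.5% in siKlf5 cells. These shares compare genes within a library and so do not depend on its scaling. The cap of 3 reads per position acts within a library, and its part in the shares was not tested. Reads per base of exon ran from 0.649 to 10.6 for Acta1 and from 0.181 to 7.23 for Actc1. Counted in reads, which favours long transcripts, the muscle share on day 3 was 53.9% (95% exact interval 52.9 to 55.0, Clopper-Pearson on reads divided by 6, counting error only) in siCtrl and 51.8% (50.6 to 53.0) in siKlf5 cells.

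**Figure D3:**
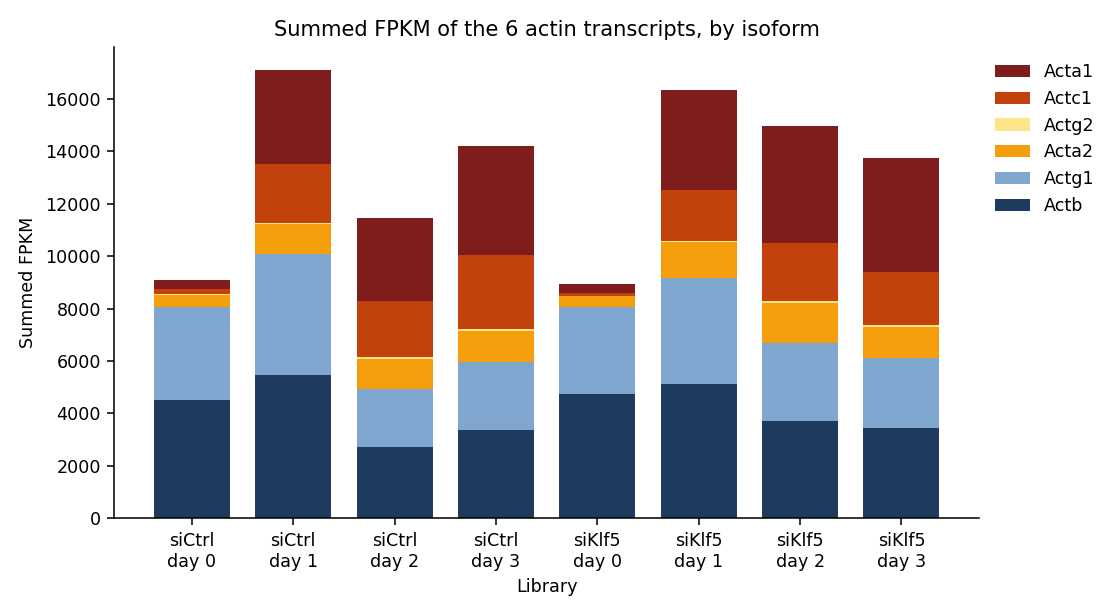
Summed FPKM of the 6 actin transcripts in each library, with the segments giving the isoforms, cytoplasmic at the bottom and muscle at the top. The muscle segments grow from 11.2% and 9.75% of the bar on day 0 to 58.0% and 55.5% on day 3 in siCtrl and siKlf5 cells.

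The order of the isoforms changed accordingly. On day 0 the order under both siRNAs was Actb, Actg1, Acta2, Acta1, Actc1 and Actg2, from high to low. On day 3 Acta1 led and Actb came next under both siRNAs. Actc1 was then above Actg1 in siCtrl cells, with 2830.1 against 2611, but below it in siKlf5 cells, with 2023 against 2669.8. Acta2 was above Acta1 on day 0 under both siRNAs, with 439 against 351 in siCtrl and 395 against 363 in siKlf5 cells. With 1 library per condition the order of neither pair, Acta2 and Acta1 on day 0 or Actc1 and Actg1 on day 3, can be settled.

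The second comparison asks whether the knockdown of Klf5 moved the actins. Over the 4 days none of the 6 was called. In the fit with day as a block, 0.00699% of the 14312 transcripts were called higher in siKlf5 cells (1 transcript) and 0.0559% lower (8), and 1374 were under 0.05 unadjusted, so few calls were made of any gene. With limma voom on the recovered reads 50 transcripts were called higher and 179 lower, and again 0 actins.

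Actc1 was the 1 actin under 0.05 before adjustment. Its fitted log2 difference was -0.39 ± 0.14 (SE, 95% interval -0.72 to -0.07), with a limma adjusted p of 0.44. On single days its log2 ratio of siKlf5 to siCtrl was -0.90 (95% interval -1.45 to -0.33) on day 0, -0.24 (-0.40 to -0.08) on day 1, 0.04 (-0.07 to 0.16) on day 2 and -0.48 (-0.61 to -0.36) on day 3. The siKlf5 library was thus lower on days 0, 1 and 3, and no difference was detectable at this depth on day 2. These intervals cover counting error alone, on reads divided by 6.

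Acta1 was close to its control on days 0, 1 and 3, with log2 ratios of 0.05 (95% interval -0.27 to 0.37), 0.09 (-0.02 to 0.21) and 0.07 (-0.02 to 0.16). On day 2 its ratio was 0.49 (0.41 to 0.57). Its fitted difference over the 4 days was 0.17 ± 0.10 (limma, adjusted p = 0.62, 95% interval -0.06 to 0.41).

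Acta2 had log2 ratios of -0.15 (95% interval -0.38 to 0.07), 0.26 (0.10 to 0.41), 0.43 (0.32 to 0.54) and 0.01 (-0.12 to 0.14) on days 0 to 3. Its fitted difference was 0.14 ± 0.10 (limma, adjusted p = 0.70, 95% interval -0.10 to 0.38). The sign of Actg2 changed between days, with -1.48 (-2.996 to 0.05), 1.47 (0.24 to 3.01), -0.15 (-0.85 to 0.50) and -0.31 (-1.24 to 0.65). Its fitted difference was -0.12 ± 0.40 (limma, adjusted p = 0.95, 95% interval -1.05 to 0.81), and it was 0.34 with day 0 left out.

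The cytoplasmic pair moved little except on day 2. Actb had log2 ratios of 0.06 (95% interval -0.01 to 0.14), -0.10 (-0.18 to -0.01), 0.46 (0.38 to 0.54) and 0.04 (-0.05 to 0.12), and Actg1 had -0.09 (-0.17 to 0.00), -0.19 (-0.28 to -0.09), 0.42 (0.33 to 0.51) and 0.03 (-0.07 to 0.13). The fitted differences were 0.12 ± 0.12 for Actb (limma, adjusted p = 0.79, 95% interval -0.15 to 0.39) and 0.04 ± 0.12 for Actg1 (adjusted p = 0.94, 95% interval -0.23 to 0.32). The sign for Actg1 was negative with day 2 left out and after quantile scaling.

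On day 2 Acta1, Acta2, Actb and Actg1 were all higher in siKlf5 cells by a similar amount. On that day 328 of the 337 transcripts with a mean FPKM of at least 1000 were higher in siKlf5 cells, with a median log2 ratio of 0.32, and the siCtrl library was 1.72 times as deep. The part of depth in these 4 values was not tested. On the other days the median of the same 337 transcripts was between -0.07 and 0.05. Counting members past 1.5-fold, Actc1 and Actg2 were lower in siKlf5 cells on day 0 and Actg2 was higher on day 1, with no other on any day. Of all 14312 transcripts, 11.1% were lower and 9.22% higher by that rule on day 0. Lower and higher shares were 11% and 16.4% for day 1. The day 2 shares were 13% and 7.69%, and the day 3 shares were 12.5% and 10.7%.

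**Figure D4:**
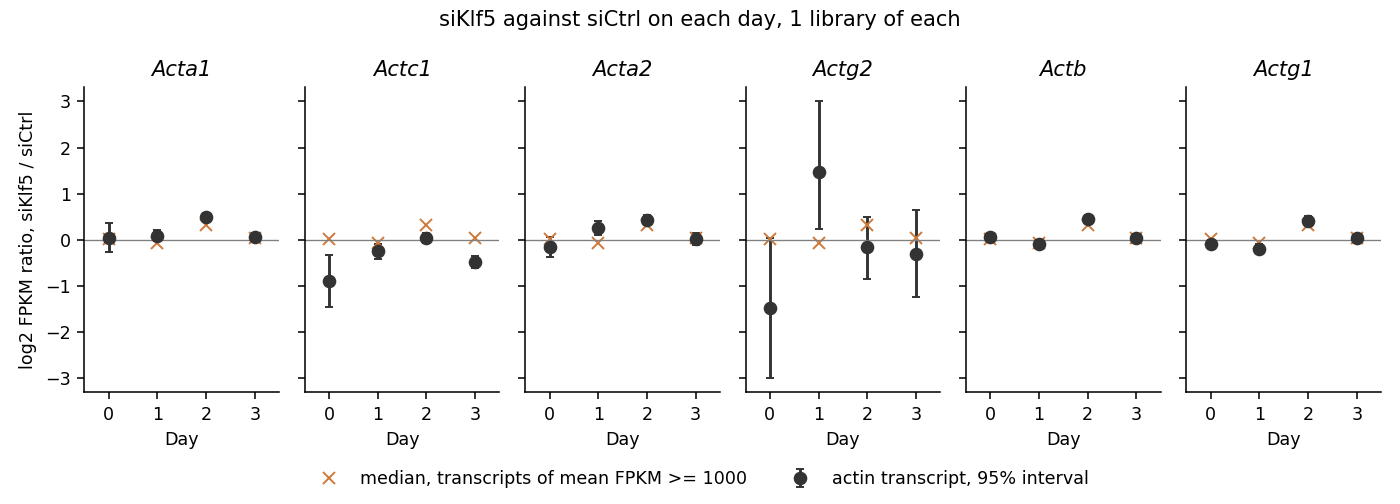
Log2 ratio of FPKM between the siKlf5 and siCtrl library of each day for the 6 actins, with 95% intervals from counting error, and crosses for the median of the 337 transcripts with a mean FPKM of at least 1000. Actc1 lies below 0 on days 0, 1 and 3, the other abundant actins lie above 0 on day 2, as do the crosses, and the intervals of Actg2 are wide.

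Ratios between 2 isoforms of 1 library do not depend on its scaling, but the part of the cap of 3 reads per position was not tested. The ratio of Acta1 to Actc1 was 1.86, 1.58, 1.47 and 1.47 on days 0, 1, 2 and 3 in siCtrl cells. In siKlf5 cells it was 3.58, 1.99, 2.00 and 2.15. The siKlf5 values were higher on all 4 days, and the 4 values of one siRNA did not overlap with those of the other. The mean log2 difference between the siRNAs was 0.57 ± 0.27 (SD, n = 4 days), 1.48-fold, with p = 0.125 in a two-sided exact sign-flip permutation test. This is the smallest p that 4 days allow, and the ratio was chosen after its values were seen. The ratio of Actb to Actg1 was between 1.19 and 1.28 in siCtrl and between 1.26 and 1.41 in siKlf5 cells, with a mean log2 difference of 0.07 ± 0.06 (SD, n = 4 days, the same exact p of 0.125). That of Acta2 to Acta1 differed by -0.04 ± 0.15 (SD, n = 4 days, exact permutation p = 0.625). The 3 ratios are 1 family, whose Benjamini-Hochberg adjusted permutation values are 0.1875, 0.1875 and 0.625.

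Whether the difference between siKlf5 and siCtrl cells grew or shrank over the days was tested with a term for siRNA by day. Of all 14312 transcripts 0% were called in either direction by limma, and 694 were under 0.05 unadjusted. The slopes of the 6 actins were between 0.05 (Acta1) and 0.19 (Actg2) per day on the log2 scale, each with an adjusted p of 0.9995, and their 95% intervals all included 0. The interval of Actc1 was -0.13 to 0.43 per day.

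The genes that bind, build and fold actin were described from lists. Of all 14312 transcripts 12.8% were called higher and 17.6% lower on day 3 than on day 0. No list was tested against these shares, so a count alone does not set a list apart. The median log2 difference between days 3 and 0 over all transcripts was -0.09. Upper-quartile scaling moved the corresponding median between days 1 and 0 by more than 0.1, from -0.09 to 0.03. Of 21 expressed crosslinking and bundling proteins, 10 rose and 6 fell from day 0 to day 3 (4 fell after median-ratio or upper-quartile scaling), with a median of 0.46. Without the siCtrl library of day 0 or day 3, 8 rose and 1 or 0 fell, and without the siKlf5 library of day 0 or day 3, 8 rose and 2 or 3 fell. The largest rises were those of Actn2, the Z-disc alpha-actinin (6.30 ± 0.18 on the log2 scale, SE), Neb, nebulin, which lines the thin filament (5.37 ± 0.28), and Nrap, a nebulin-related anchor of nascent myofibrils (3.25 ± 0.15). The largest falls were those of Fscn1, fascin, a bundler of filopodia (-0.83 ± 0.12), and Tagln2, transgelin 2 (-0.67 ± 0.11). Their limma adjusted p-values were from 7.4e-07 to 0.0035. These genes were picked for the size of their change among those called, so they do not describe the list as a whole.

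Of 35 expressed genes of nucleation and elongation, 10 rose and 7 fell (6 after median-ratio scaling), with a median of -0.10 (0.01 after median-ratio scaling). Without 1 of the day 0 or day 3 libraries 7 to 9 rose and 3 (siKlf5, day 3) to 6 (siCtrl, day 3) fell. All 3 leiomodins, which nucleate filaments in muscle, led the rises. Lmod1 rose by 5.25 ± 0.63, Lmod2 by 4.95 ± 0.14 and Lmod3 by 4.49 ± 0.24 on the log2 scale (SE, limma, adjusted p from 7.4e-07 to 7.1e-04). Lmod1 had only 1.81 FPKM in siCtrl and 0.284 in siKlf5 cells on day 0, so the size of its rise is uncertain. Over 17 alternatives it was 4.14 to 6.26, against 4.78 to 5.06 for Lmod2, so their order is not settled. The formins Diap3 (-1.65 ± 0.16) and Fhod1 (-1.04 ± 0.12) and the WAVE protein Wasf1 (-0.93 ± 0.25) fell furthest.

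Of 11 expressed capping proteins, 1 rose and 5 fell (4 after either scaling). Without the siCtrl library of day 0 or day 3, 1 fell, and without the siKlf5 library of either day, 2 did. Tmod1, the tropomodulin that caps sarcomeric thin filaments, rose by 2.30 ± 0.17 on the log2 scale. Eps8 (-1.68 ± 0.12), Add2, beta-adducin (-1.49 ± 0.24), and Tmod3, the widely expressed tropomodulin (-0.84 ± 0.15), fell furthest, with limma adjusted p-values of 0.0039 or less.

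Of 23 expressed genes of monomer binding and turnover, 4 rose and 9 fell (6 after median-ratio scaling and 7 after upper-quartile scaling). Without any 1 of the 4 libraries of days 0 and 3, 2 rose and 3 fell, or 4 fell where it was the siKlf5 library of day 3. Without either day 2 library 2 rose and 9 fell. Cap2, the muscle form of cyclase-associated protein, rose by 5.21 ± 0.15, Cfl2, muscle cofilin, by 0.60 ± 0.10, and Tmsb10, a thymosin that holds monomers, by 0.52 ± 0.15 on the log2 scale. Limk1, the kinase that inactivates cofilin (-1.15 ± 0.14), Pfn2, profilin 2 (-1.04 ± 0.30), and Coro1c, a coronin (-0.84 ± 0.11), fell furthest. The call of Tmsb10 and that of Pfn2 (limma adjusted p of 0.036 and 0.034) were kept in 6 of 17 alternatives each.

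Of 17 expressed genes that fold or modify actin, 0 rose and 10 fell (6 after either scaling), with a median of -0.50. Without the siCtrl library of day 0, 3 fell, and without any of the other 3 libraries of days 0 and 3, 2 did. Pfdn4, a prefoldin subunit (-0.83 ± 0.17), and Cct7 and Cct2, subunits of the chaperonin that folds actin and tubulin (-0.80 ± 0.10 and -0.68 ± 0.12), fell furthest on the log2 scale, with limma adjusted p-values of 0.0074, 0.0010 and 0.0035. The summed level of the actins themselves was higher on day 3 than on day 0 in both siRNAs, as given above.

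Of 8 expressed actin-related proteins and 3 expressed genes of the Srf group, 0 passed the test from day 0 to day 3. Srf had FPKM values of 153 and 162 on days 0 and 3 in siCtrl and 145 and 174 in siKlf5 cells (0.18 ± 0.14 on the log2 scale, limma adjusted p = 0.38). From day 0 to day 1 Srf rose by 0.61 ± 0.14 on the log2 scale (limma adjusted p = 0.022). Its coactivators Mkl1 and Mkl2 had log2 differences of -0.16 ± 0.13 and 0.09 ± 0.23 (limma adjusted p = 0.41 and 0.80). The muscle coactivator Myocd was at 0 in 4 of the 8 libraries. Before adjustment 3 of the actin-related proteins and 0 of the Srf group were under 0.05, and limma voom called 1 actin-related protein lower. Between siKlf5 and siCtrl cells limma called 0 genes of any of these lists, with 0 (capping, folding) to 6 (nucleation) of a list under 0.05 before adjustment.

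Families of actin-binding proteins, most with a non-muscle and a muscle member, were set beside the actins. Over all transcripts 12.8% were called higher and 17.6% lower on day 3 than on day 0. Of the 18 genes listed, 7 rose and 8 fell (5 after median-ratio or upper-quartile scaling). Without the siCtrl library of day 0 or of day 3, 6 rose and 0 fell, and without the siKlf5 library of either day 6 rose and 2 fell. In the cofilins Cfl2 rose and Cfl1 fell (-0.56 ± 0.15), and in the cyclase-associated proteins Cap2 rose and Cap1 fell (-0.60 ± 0.11). Actn2 and Actn3 (1.84 ± 0.13) rose, Actn4 fell (-0.48 ± 0.11), and Actn1 had -0.23 ± 0.11 (limma adjusted p = 0.15). Flnc, the muscle filamin, rose (1.05 ± 0.13), whereas Flna fell (-0.55 ± 0.10). Tagln rose (2.30 ± 0.56) and Tagln2 fell. Tmod1 rose and Tmod3 fell, while Tmod4 had FPKM values of only 6.20 and 17.9 on days 0 and 3 in siCtrl and 8.65 and 4.54 in siKlf5 cells (0.30 ± 1.54, limma adjusted p = 0.91). In the profilins Pfn2, at 12.3 to 42.2 FPKM in the day 0 and day 3 libraries, fell, and the far more abundant Pfn1, at 2673 to 3655, had -0.34 ± 0.14 (limma adjusted p = 0.11). In the actins the muscle isoforms Acta1, Actc1 and Acta2 rose, and the log2 differences of Actb and Actg1 were close in size to those of Actn4, Flna and Cfl1 but not called.

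**Figure D5:**
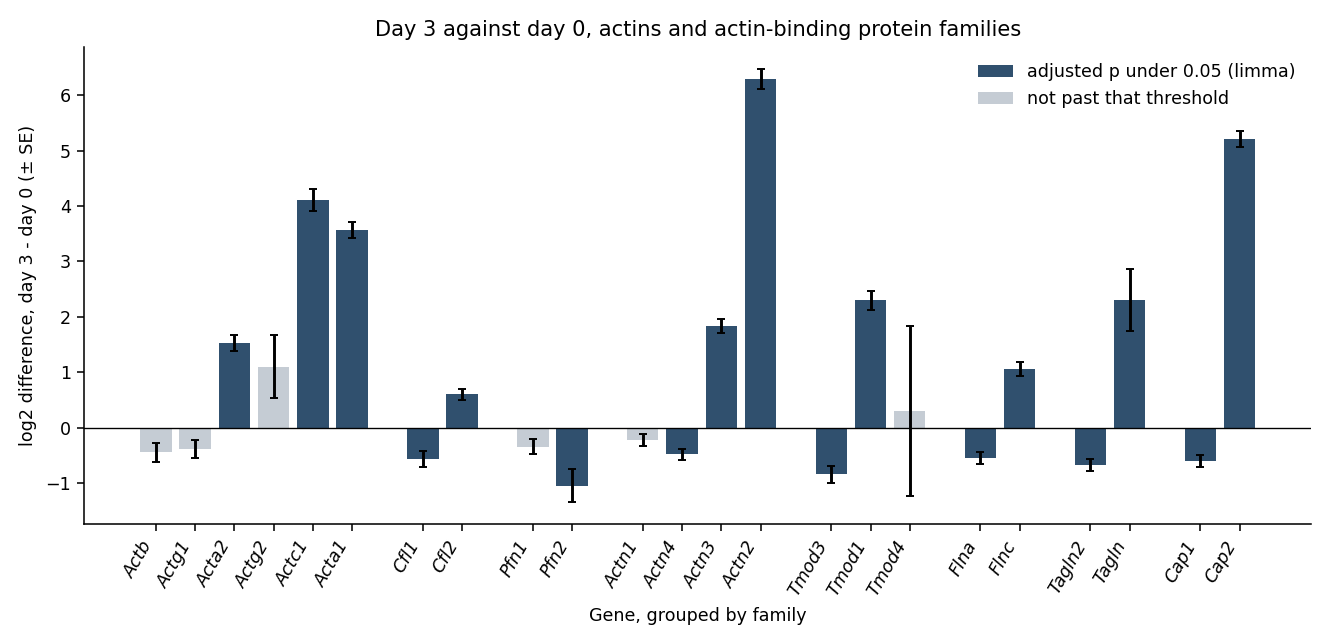
Log2 difference of FPKM between days 3 and 0 (bars, with the SE of the limma fit) for the actins and for families of actin-binding proteins, most with non-muscle and muscle members, dark where the adjusted p is under 0.05. In the actinins, filamins, transgelins, cofilins and Cap proteins the called muscle members lie above 0 and the called non-muscle members below, and of the profilins Pfn2 alone is called, below 0.

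Likeness of profile was measured over the 8 libraries as the root mean square difference of centred log2 values, among the 11591 transcripts with a mean FPKM of at least 10. Acta1 was closest to Tnnc2, fast troponin C (0.17), Chrng, the embryonic subunit of the acetylcholine receptor (0.24), and Tnnc1, slow troponin C (0.24). Actc1 was closest to Tnnc1 (0.23), Tnnt3, fast troponin T (0.25), and Tmem8c, the fusion protein myomaker (0.27), and its distance from Acta1 was 0.39. Acta2 was closest to Ctso, a cathepsin (0.12), Sema3d, a semaphorin (0.16), and Dtx4 (0.16), and lay further from Acta1 (0.82) than from Actg2 (0.56). Actg2 had no near match, the smallest distances being 0.32 to 4930414N06Rik, 0.33 to Traf3ip3 and 0.33 to Tdrkh. Actb was closest to Basp1 (0.061), Hsp90b1 (0.063) and Vim, vimentin (0.066), with Actg1 at 0.067, and Actg1 was closest to Actb, Hsp90b1 (0.074) and Vim (0.085). The part of depth in the near matches of Actb and Actg1 was not tested.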

How the data were processed

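RNA of C2C12 cells was measured in 8 libraries, 1 for each siRNA (siCtrl, siKlf5) and day (0, 1, 2 and 3). ChIP-seq samples of the series are not analysed here. Per the labels, the authors aligned paired-end poly(A) reads to mm9 with STAR and deposited FPKM values made with HOMER on the exons of RefSeq transcripts, with 1 transcript per gene, both strands counted, at most 3 reads kept per position and a library total set to 10000000. They are thus larger than usual FPKM. The authors also deposited log2 columns (FPKM with 1 and a further number below 1 added, then log-transformed), which were not used, and 1 of these has no day in its name. Tool versions for the RNA-seq are not given in the sources used here. The DESeq2-normalized counts that the study describes were not used. Both strands were counted, so antisense transcripts can share reads.

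Reads were recovered from FPKM and exon length, and all of the 3684 to 4027 low values checked per library were within 0.1 of a whole number. Depth was 7850497 to 20301505 reads. Transcripts with 6 reads were far more frequent than those with 5 (419 against 68 in siCtrl on day 0), so a unit of 6 reads was taken as 1 event in the 95% exact Clopper-Pearson intervals, which cover no error but that of counting.

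Log2(FPKM + 0.1) of the 14312 transcripts with a mean FPKM of at least 1 was fitted with limma 3.58.1 in R 4.3.3 (empirical Bayes with trend) with siRNA and day as factors, which leaves 3 residual degrees of freedom. A second fit added siRNA by day as a number and left 2. P-values were adjusted by Benjamini-Hochberg over all transcripts. A fold change on this scale understates that of low genes. Since no condition has a replicate, siRNA serves as the block for days and day as the block for siRNAs. The fit was also run on simulated reads with independent noise in each library and no shift linked to depth, so it does not speak to such a shift. The rest was computed in Python 3.11.15 with pandas 2.3.3, scipy 1.17.1 and numpy 2.4.6, and plotted with matplotlib 3.10.9.

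The members and gene lists were chosen with earlier results of these data known. The genes named were the 6 actins, Klf5, every gene of the isoform families and some markers of each cell type. Per actin-binding list, up to 3 largest rises and 3 largest falls from day 0 to day 3 were named. These were taken among transcripts with a limma adjusted p under 0.05 and a mean FPKM of at least 10. The 3 nearest profiles of each actin were named too. A gene of the isoform families and a promoter are not reported here. The Srf group was named in full after its values were seen. Sequences and GENCODE exons (release M1) are those of mm9.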

Additional observations from a re-analysis of the deposited data

How the results depend on the processing

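Each siRNA and day has 1 library, so no result has a replicate within a condition. Acta1, Actc1 and Acta2 were called higher on day 3 than on day 0 in all 17 alternatives, with log2 differences of 3.49 to 3.69, 3.78 to 4.45 and 1.34 to 1.72. Quantile scaling and limma voom on recovered reads were added after seeing the data, the latter in place of the planned edgeR fit, which was not run because the deposited values are not counts. Actb and Actg1 were lower in all 17 and the 2 were called lower in 4, namely under quantile scaling, under limma voom, and without the day 2 library of siCtrl or of siKlf5. Leaving out 1 library at a time thus gave 0 to 2 actins called lower, and gave 668 to 1811 transcripts called higher and 752 to 2423 called lower. With no filter on low values these were 905 and 1256, and the cause was not tested. With no replicate block (siRNA left out of the fit) 1665 transcripts were called higher and 2330 lower, and the same number of actins.

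Between siKlf5 and siCtrl cells 0 actins were called in all 13 alternatives. Transcripts called higher and lower were 0 and 0 with no filter on low values, 0 and 0 with each day left out in turn, 0 and 1 with no replicate block (day left out of the fit), and 50 and 179 with limma voom. With a day left out the log2 difference of Actg2 was -0.65 to 0.34 (positive without day 0) and that of Actg1 -0.080 to 0.12 (negative without day 2), and that of Actg1 was -0.053 after quantile scaling. The cause was not tested. The muscle share on day 3 was 53.9% in siCtrl and 51.8% in siKlf5 cells in reads, which weight long transcripts more. The calls of Tagln, Wasf1, Cfl1 and Actn4 from day 0 to day 3 were kept in 10 of 17 alternatives each.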
